A study of Mus musculus with 10 samples.

Results

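Collagens are the chains that build the fibrils, networks and filaments of the extracellular matrix, and in brain they come mainly from the fibroblasts of the meninges and from the walls of blood vessels. The genes described here are the 44 collagen chain genes of the deposited table, matched by symbol, together with 11 genes of meningeal fibroblasts and their matrix, Dcn, Lum, Ogn, Mgp, Slc6a13, Igf2, Igfbp2, Slc22a6, Fn1, Bgn and Fbln1. They make 55 of the 21956 genes in the table. They were measured by RNA sequencing in the hippocampus of hMAPT mice aged 6 months, in 5 libraries from mice that received an AAV carrying circTau6, taken 80 days after injection, and in 5 libraries from mice labelled control. All 10 share the hMapt genotype. The extract protocol calls the control mice control-injected, without naming the agent, and the labels give neither the promoter of the AAV nor the cells it reaches. The mouse gene Mapt had 24.4 to 28.9 CPM (counts over library size, scaled by the trimmed mean of M-values, TMM) in circTau6 libraries and 25.8 to 31.4 CPM in control libraries. A table of gene counts holds no read junctions, so circTau6 itself was not analysed here.

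Fibrillar collagens form rope-like fibrils, type IV chains assemble into the sheet of the basement membrane around vessels and under the pia, type VI forms beaded filaments, and the chains called FACIT sit on the surface of fibrils. Small leucine-rich proteoglycans such as decorin (Dcn), lumican (Lum), osteoglycin (Ogn) and biglycan (Bgn) bind collagen fibrils and are markers of fibroblasts. The choroid plexus, which lies beside the hippocampus and makes cerebrospinal fluid, has an epithelium of its own and a stroma with fibroblasts, and both choroid plexus and meninges secrete the growth factor Igf2.

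No member passed the test between circTau6 and control mice. Of 55 members 54 passed the filter on low counts, Col10a1 (0 to 6 counts per library) being left out, and edgeR's quasi-likelihood test called 0 of 54 higher and 0 lower at an adjusted p under 0.05, where 0% of the 14396 genes tested were called higher and 0% lower. At an unadjusted p under 0.05, 5 members (9.26%) were higher and 0 were lower, against 2.58% of all genes tested higher and 1.85% lower. The 5 became 2 without control replicate 3, and 3 without control replicate 4 or without circTau6 replicate 3. The 0 became 1, Col11a1, without control replicate 5. DESeq2 and limma voom with quality weights gave the same counts for the members, with 5 higher and 0 lower unadjusted, and called 14 and 2 of all genes but 0 members. In 0 of 54 members did all 5 circTau6 libraries lie above all 5 control libraries, and in 0 did they lie below, against 0.472% and 0.368% of all genes.

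The signs of the differences were uneven. The log2 fold change of circTau6 over control was above 0 for 39 of 54 members (72.2%) and below 0 for 15, against 49.9% above 0 among all genes tested. Its median was 0.10 over the members and 0.00 over all genes. All 11 members that are not collagens had a value above 0, between 0.06 for Dcn and 0.65 for Mgp. The count rested in part on single libraries. Without circTau6 replicate 3 it was 28 of 54 members with a median of 0.01. Without control replicate 2 it was 31 members with a median of 0.08. Leaving out other libraries also moved the median by over 1.5 times, to 0.25 without circTau6 replicate 5, 0.22 without circTau6 replicate 2 and 0.20 without control replicate 1.

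The members varied more between libraries than most genes. Their coefficient of variation over the 10 libraries had a median of 34.9%, against 9.60% for all genes tested, and lay above that value in 51 of 54 members. The standard error of the log2 fold change had a median of 0.31 for the members and 0.09 for all genes. The genes compared were not matched for count level. Low counts widen the spread of some members, such as Col28a1 with 1 to 16 counts per library. Igf2, with 613 to 4882 counts, had a coefficient of variation of 45.9%. In bulk tissue, fewer cells of a type and less RNA per cell cannot be told apart. In the plot of members by library, blocks of genes share high and low libraries that cross the group border.

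**Figure D1:**
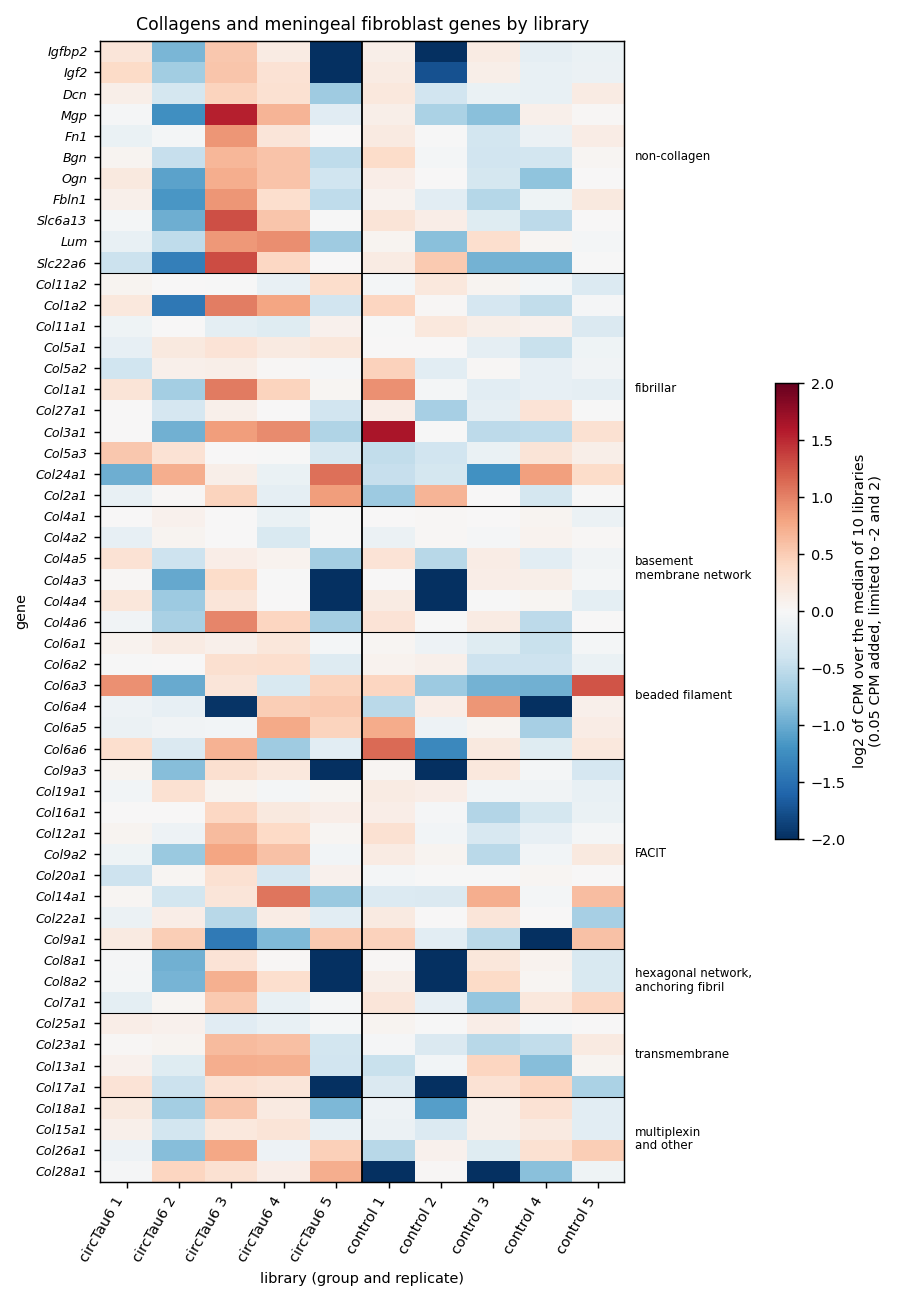
Level of the 54 members past the count filter in each library. Columns are the 5 circTau6 and 5 control libraries, rows are genes ordered by structural class and then by mean TPM, and colour is the log2 ratio of CPM to the median of the 10 libraries, with 0.05 CPM added and limited to -2 and 2. circTau6 replicate 5 and control replicate 2 share dark blue cells in 8 genes, and circTau6 replicate 3 was the highest library for 28 of 54 members.

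Total counts were 14762952 to 17647138 per library and TMM factors 0.986 to 1.03. Transcripts of the choroid plexus epithelium split the libraries. The 13 marker genes of that epithelium summed to 3110 to 9110 CPM in 4 circTau6 libraries and 5000 to 7890 CPM in 4 control libraries, but to 272 CPM in circTau6 replicate 5 and 271 CPM in control replicate 2. Markers of hippocampal neurons summed to 608 CPM in circTau6 replicate 5 and 672 CPM in control replicate 2, within the ranges of 584 to 662 CPM in circTau6 and 602 to 680 CPM in control libraries. Another 20 genes of meningeal fibroblasts, none of them a member, summed to 187 to 382 CPM in circTau6 and 205 to 262 CPM in control libraries, with 19 past the filter and Slc22a2 at 0 in at least 1 library.

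Compared in TPM, which takes transcript length into account, the most abundant members were secreted proteins. Igfbp2 averaged 120 TPM and Igf2 114.7 TPM over the 10 libraries, ahead of Dcn with 62.9 TPM and Mgp with 52.0 TPM. The most abundant collagen chain was Col25a1 with 44.2 TPM, followed by Col9a3 with 37.9, Col4a1 with 32.7 and Col4a2 with 27.8 TPM. The spread of Col9a3, 18.5 TPM (SD, n = 10), exceeded its distance to both Col25a1 and Col4a1. Chains of the classical fibrils were lower, with 11.2 TPM for Col1a2, 4.12 TPM for Col1a1 and 3.17 TPM for Col3a1.

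The fibrillar class holds 11 chains, of which 7 had a log2 fold change above 0 (median 0.20). Col5a1, a type V chain that is built into type I fibrils (GRCm38 chr2:27886425-28039514 on the plus strand), had one of the lowest unadjusted p among the members. It had 22.5, 28.9, 30.2, 28.5 and 29.3 CPM in circTau6 libraries, against 25.1, 25.1, 22.1, 18.5 and 23.6 CPM in control libraries. circTau6 replicates 2 to 5 lay above every control library, and replicate 1 lay among the controls. For Col5a1 the log2 fold change was 0.29 ± 0.10 (SE, n = 5 each), with an unadjusted p of 0.00948 and an adjusted p of 0.981 by edgeR.

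Col1a2, a chain of type I collagen and a fibroblast gene, had 24.6, 7.90, 43.4, 37.0 and 16.3 CPM in circTau6 libraries, against 28.8, 21.6, 16.9, 15.2 and 21.1 CPM in control libraries. Both its highest value, in replicate 3, and its lowest, in replicate 2, came from circTau6 mice, and the groups overlapped. For Col1a2 the log2 fold change was 0.32 ± 0.43 with an adjusted p of 0.982 by edgeR. It was 0.05 without circTau6 replicate 3, 0.16 without circTau6 replicate 4, 0.55 without circTau6 replicate 2 and 0.13 with limma voom. Its partner chain Col1a1 had 9.97, 5.21, 17.3, 11.4 and 8.57 CPM in circTau6 libraries, against 15.8, 8.13, 7.17, 7.43 and 7.34 CPM in control libraries. Control replicate 1 stood above the other 4 controls, as it did for Col3a1, the single chain of type III collagen, with 14.3 CPM against 3.16 to 5.67 CPM in the other controls and 2.34 to 8.82 CPM in circTau6 libraries. Col1a1 and Col3a1 are given here after their values were seen.

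The fibrillar chains Col11a1 and Col11a2, known from cartilage, behaved otherwise. Col11a2 had 25.2 to 35.4 CPM in circTau6 libraries and 23.1 to 32.1 CPM in control libraries, and Col11a1 had 17.8 to 22.5 CPM in circTau6 libraries and 17.3 to 24.4 CPM in control libraries. In circTau6 replicate 5 and control replicate 2, where choroid plexus transcripts were nearly absent, Col11a2 stood at 127% and 119% of the median of the other libraries of its group, and Col11a1 at 117% and 112%. The log2 fold changes were 0.07 ± 0.10 for Col11a2 and -0.12 ± 0.10 for Col11a1, and neither passed the test.

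The promoter of Col1a2 is shown because this gene had the widest range among fibrillar chains above 10 TPM, 5.50-fold between libraries. The window, chr6:4505368-4505667 on the plus strand of GRCm38.p6, runs from 250 bases before to 50 after a transcript start given by RefSeq. GENCODE M21 puts the start of the gene at chr6:4504814, so the window lies inside the gene as annotated there. Capitals mark a CCAAT box (CCAAT or ATTGG) or a GC box (GGGCGG or CCGCCC), on either strand.
Col1a2: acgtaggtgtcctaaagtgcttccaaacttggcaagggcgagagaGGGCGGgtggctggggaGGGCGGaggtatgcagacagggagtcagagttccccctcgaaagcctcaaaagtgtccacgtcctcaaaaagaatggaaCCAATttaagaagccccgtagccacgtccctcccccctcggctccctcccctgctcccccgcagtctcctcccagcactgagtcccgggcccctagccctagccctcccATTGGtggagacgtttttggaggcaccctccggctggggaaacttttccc
It holds 2 CCAAT boxes and 2 GC boxes. Of 32851 mouse promoter windows of the same length, 37.4% hold a CCAAT box, 35.7% a GC box and 13.6% a TATA box (TATAAA or TTTATA). A window was at hand for 42 of 55 members, of which 16 held a CCAAT box, 27 a GC box and 6 a TATA box. A match of letters is a description and no evidence of binding.

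Of the 11 members that are not collagens, 10 were highest in circTau6 replicate 3, and Lum was highest in circTau6 replicate 4. Dcn (GRCm38 chr10:97479609-97518143 on the plus strand) had 48.6, 35.2, 60.8, 55.3 and 27.3 CPM in circTau6 libraries, against 52.2, 34.4, 41.1, 40.4 and 50 CPM in control libraries. The groups overlapped, and the log2 fold change was 0.06 ± 0.23 with an adjusted p of 0.994 by edgeR. An interval of 2 SE on either side ran from -0.39 to 0.51 for Dcn. Leaving out circTau6 replicate 3, circTau6 replicate 4 or control replicate 2 turned this sign.

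Mgp, which encodes an inhibitor of calcification, had the largest log2 fold change of the 11. It had 11.4, 4.91, 34.0, 18.5 and 9.86 CPM in circTau6 libraries, against 12.5, 7.41, 6.43, 12.4 and 11.7 CPM in control libraries. circTau6 replicates 3 and 4 lay above every control, and circTau6 replicate 2 lay below every control. Between groups Mgp had a log2 fold change of 0.65 ± 0.50, with an adjusted p of 0.981 by edgeR. It was 0.15 without circTau6 replicate 3 and 0.31 with limma voom.

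The transporters Slc6a13, which takes up GABA and taurine, and Slc22a6, which carries organic anions, mark fibroblasts of the meninges. Slc6a13 had 7.19, 3.74, 18, 10.8 and 7.34 CPM in circTau6 libraries, against 8.86, 8.07, 6.20, 5.09 and 7.41 CPM in control libraries. Slc22a6 had 5.10, 2.63, 17.1, 9.18 and 6.93 CPM in circTau6 libraries, against 7.76, 9.91, 3.56, 3.55 and 6.87 CPM in control libraries. circTau6 replicate 3 was the highest and circTau6 replicate 2 the lowest library for both genes. The log2 fold change was 0.41 ± 0.37 for Slc6a13 and 0.37 ± 0.51 for Slc22a6. Without circTau6 replicate 3 they were 0.03 for Slc6a13 and -0.09 for Slc22a6.

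The other matrix genes of fibroblasts spanned a wider range in circTau6 than in control libraries. Ogn had 9.89 to 34.6 CPM in circTau6 libraries and 12 to 22.9 CPM in control libraries. The glycoprotein gene Fbln1 had 6.61 to 27.5 CPM in circTau6 libraries and 10 to 17.0 CPM in control libraries, and Lum had 4.42 to 13.8 CPM in circTau6 libraries and 4.03 to 9.18 CPM in control libraries. Bgn had 16.5 to 37.0 CPM in circTau6 libraries and 18 to 30.1 CPM in control libraries. Fn1, the cell-adhesive glycoprotein fibronectin, had 173 CPM in circTau6 replicate 3, 85.2 to 111 CPM in the other circTau6 libraries, and 72.6 to 106 CPM in control libraries. The log2 fold changes of these 5 genes lay between 0.19 for Fbln1 and 0.31 for Ogn, and none passed the test. Without circTau6 replicate 3 they were 0.11 for Ogn, 0.09 for Lum, 0.04 for Bgn, 0.04 for Fn1 and -0.10 for Fbln1.

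Igf2 and Igfbp2, the growth factor and one of its binding proteins, followed the choroid plexus transcripts. Igf2 had 249, 117, 280, 234 and 41.7 CPM in circTau6 libraries, against 213, 56.9, 206, 171 and 175 CPM in control libraries. Igfbp2 had 82.2, 37.0, 101, 77.6 and 15.6 CPM in circTau6 libraries, against 75.4, 17.0, 77.7, 61.2 and 63.7 CPM in control libraries. For both genes circTau6 replicate 5 and control replicate 2 were the lowest libraries of their groups, and circTau6 replicate 2 was the next lowest of the 10. Group differences were small beside this spread, with a log2 fold change of 0.17 ± 0.54 for Igf2 and 0.09 ± 0.55 for Igfbp2. Reads of Igf2 may be shared with Gm49394, which overlaps it on the same strand, and with Igf2os on the other strand, since whether counting used strand is not given.

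**Figure D2:**
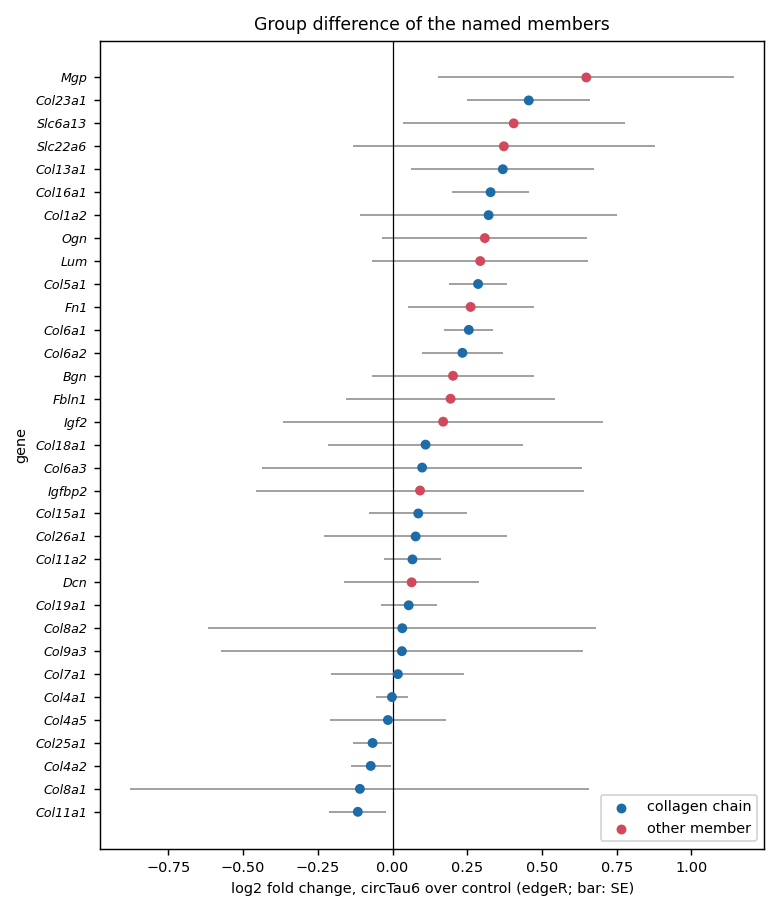
Group difference of the 33 members named by rule. Points are edgeR log2 fold changes of circTau6 over control (x axis, log2) with their SE as bars, blue for collagen chains and red for other members, and genes run down the page from Mgp at 0.65 to Col11a1 at -0.12. The short bars belong to Col4a1, Col4a2 and Col25a1, and the long ones to Col8a1, Col8a2 and Col9a3.

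Type IV collagen, the network of basement membranes, is encoded by 3 pairs of genes that lie head to head and are read outward from a shared region. On GRCm38 the starts of Col4a1 and Col4a2 lie 21 bp apart on chromosome 8, those of Col4a3 and Col4a4 lie 72 bp apart on chromosome 1, and those of Col4a5 and Col4a6 lie 1309 bp apart on chromosome X. The pairs differed in how they varied. Col4a1 and Col4a2, the chains of vessel walls in most tissues, were steady, Col4a3 and Col4a4 were not, and Col4a5 and Col4a6 lay between them.

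Col4a1 had 64.7, 68.7, 64.7, 58.9 and 64.4 CPM in circTau6 libraries, against 64.7, 65.5, 65.0, 66.9 and 59.8 CPM in control libraries. Col4a2 had 66.7, 77.5, 74.5, 59.9 and 74.2 CPM in circTau6 libraries, against 68.7, 75.8, 72.8, 77.9 and 75.9 CPM in control libraries. The groups overlapped for both chains, and the ratio of Col4a1 to Col4a2 in CPM stayed between 0.787 and 0.984. Col4a1 had a log2 fold change of 0.00 ± 0.05, with an interval of 2 SE on either side from -0.11 to 0.10, and Col4a2 had -0.07 ± 0.07. The coefficient of variation of Col4a1, 4.57%, lay at percentile 9.27 of all genes tested. The windows of this pair are shown because they overlap by 78 bases, and the bases before each start lie inside the neighbouring gene.
Col4a1: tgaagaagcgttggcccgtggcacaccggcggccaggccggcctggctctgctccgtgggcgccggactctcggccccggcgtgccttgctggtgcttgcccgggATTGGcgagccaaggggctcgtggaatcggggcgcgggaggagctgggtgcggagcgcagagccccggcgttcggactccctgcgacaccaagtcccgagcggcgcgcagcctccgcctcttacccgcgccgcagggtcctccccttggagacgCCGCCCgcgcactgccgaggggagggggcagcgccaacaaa
Col4a2: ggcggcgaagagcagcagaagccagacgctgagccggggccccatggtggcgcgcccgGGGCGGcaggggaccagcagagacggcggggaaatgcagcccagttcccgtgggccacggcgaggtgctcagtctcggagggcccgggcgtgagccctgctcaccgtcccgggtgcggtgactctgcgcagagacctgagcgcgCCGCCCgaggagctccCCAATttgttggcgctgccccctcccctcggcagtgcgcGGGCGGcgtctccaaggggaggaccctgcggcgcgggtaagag
Capitals again mark CCAAT and GC boxes. The Col4a1 window lies at chr8:11312777-11313076 on the minus strand and holds 1 CCAAT and 1 GC box. The Col4a2 window lies at chr8:11312555-11312854 on the plus strand and holds 1 CCAAT and 3 GC boxes.

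Col4a3 and Col4a4, chains best known from the kidney glomerulus, fell outside the rule for named genes and are given after their values were seen. Col4a3 had 6.91, 3.34, 8.83, 6.77 and 1.22 CPM in circTau6 libraries, against 6.85, 0.534, 7.46, 7.36 and 6.60 CPM in control libraries. Col4a4 had 8.50, 4.33, 8.55, 7.24 and 1.36 CPM in circTau6 libraries, against 8.08, 1.19, 7.23, 7.43 and 6.34 CPM in control libraries. Both chains were lowest in circTau6 replicate 5 and control replicate 2, which are the libraries with the fewest choroid plexus transcripts, and next lowest in circTau6 replicate 2. The ratio of Col4a3 to Col4a4 was 0.770 to 1.03 in circTau6 libraries and 0.450 to 1.04 in control libraries, with 9 and 20 counts behind the lowest ratio, in control replicate 2. The log2 fold changes were -0.08 ± 0.65 for Col4a3 and 0.00 ± 0.56 for Col4a4. The window of Col4a4, chr1:82586800-82587099 on the minus strand, is shown for comparison with the steady pair, and none of the 3 motifs is in it.
Col4a4: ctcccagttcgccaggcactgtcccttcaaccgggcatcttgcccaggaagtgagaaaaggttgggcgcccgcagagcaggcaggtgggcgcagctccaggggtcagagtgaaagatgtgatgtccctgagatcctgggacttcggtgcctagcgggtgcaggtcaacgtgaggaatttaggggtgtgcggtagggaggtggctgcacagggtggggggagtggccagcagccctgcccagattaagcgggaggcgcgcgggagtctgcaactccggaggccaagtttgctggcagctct

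Col4a5 had 6.87 to 13.5 CPM in circTau6 libraries and 7.47 to 13.3 CPM in control libraries. circTau6 replicate 5 and control replicate 2 were again the lowest of their groups, at 58.1% and 65.8% of the median of the other 4. Col4a6, a chain outside the named genes, had 1.56 to 4.99 CPM in circTau6 libraries and 1.74 to 3.04 CPM in control libraries. Its ratio to Col4a5 was the least steady of the 3 pairs in circTau6 libraries, with Col4a5 at 2.43 to 5.67 times Col4a6. The log2 fold changes were -0.02 ± 0.19 for Col4a5 and 0.15 ± 0.30 for Col4a6.

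**Figure D3:**
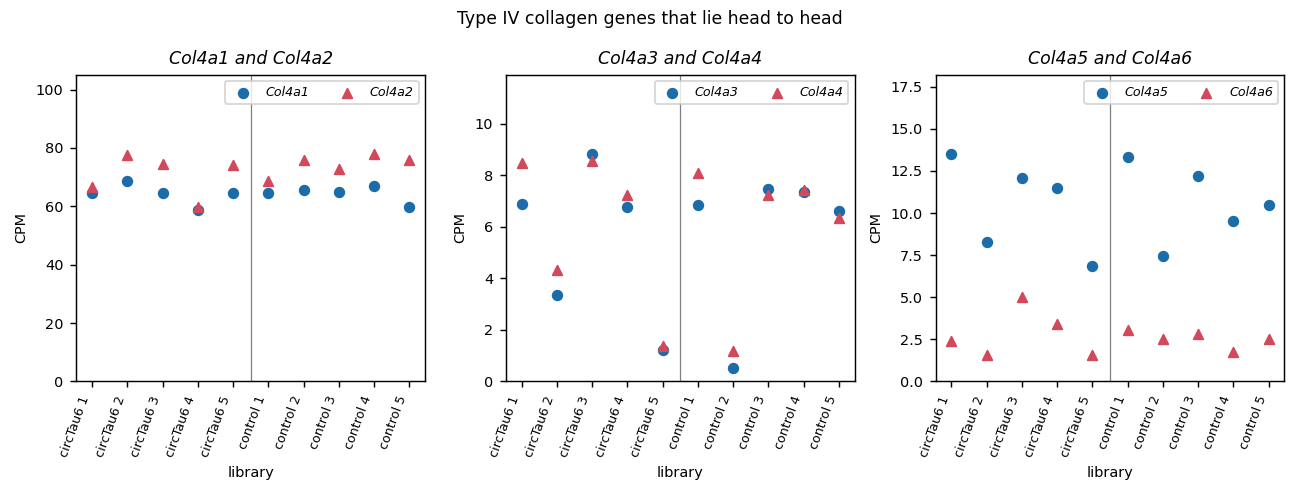
Type IV collagen chains by library, 1 panel for each head-to-head pair. The y axis is CPM from 0 and the x axis lists the 5 circTau6 and then the 5 control libraries. Col4a1 stays at 58.9 to 68.7 CPM, while Col4a3 and Col4a4 are at 1.22 and 1.36 CPM in circTau6 replicate 5 and at 0.534 and 1.19 CPM in control replicate 2.

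Type VI collagen forms beaded filaments from the chains Col6a1, Col6a2 and one of several longer chains. Col6a1 (GRCm38 chr10:76708792-76726168 on the minus strand) had the lowest unadjusted p of all members. It had 35.0, 37.3, 35.9, 38.9 and 32.6 CPM in circTau6 libraries, against 34.1, 31.0, 28.3, 24.6 and 32.6 CPM in control libraries. circTau6 replicates 1 to 4 lay above every control, and replicate 5 lay at the level of control replicate 5. The log2 fold change was 0.26 ± 0.08 (SE, n = 5 each), with an unadjusted p of 0.00694 and an adjusted p of 0.981 by edgeR.

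Its obligate partner Col6a2 had 14.3, 14.5, 17.9, 18.2 and 12.1 CPM in circTau6 libraries, against 15.2, 15.5, 10.8, 10.8 and 13.2 CPM in control libraries. The groups overlapped more than for Col6a1, and the log2 fold change of 0.23 ± 0.13 had an unadjusted p of 0.103 by edgeR. Col6a3 was erratic, with 2.46 to 9.52 CPM in circTau6 libraries and 2.54 to 12.1 CPM in control libraries, and a log2 fold change of 0.10 ± 0.54. Of the longer chains, Col6a4 ran from 0.268 CPM in control replicate 4 to 8.95 CPM in control replicate 3, which are 4 and 156 counts, and was named after its values were seen. Of 6 type VI chains 5 had a log2 fold change above 0.

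Of the 9 FACIT chains, which decorate fibrils, 6 had a log2 fold change above 0. Col16a1 (GRCm38 chr4:130047840-130099283 on the plus strand), next after Col5a1 by unadjusted p, had 12.7, 12.7, 16.9, 14.5 and 14.0 CPM in circTau6 libraries, against 13.9, 12.5, 8.49, 9.97 and 11.6 CPM in control libraries. circTau6 replicates 3 to 5 lay above every control library. Col16a1 had a log2 fold change of 0.33 ± 0.13 with an unadjusted p of 0.0209 and an adjusted p of 0.981 by edgeR. The deposited TPM of the authors put this chain elsewhere, at 8.92 ± 0.65 TPM in circTau6 and 8.81 ± 5.12 TPM in control libraries (SD, n = 5 each). Counts and TPM thus gave different pictures for it. Control replicate 2 had 17.3 TPM, against 4.62 to 9.86 TPM in the other control libraries, while its 12.5 CPM lay within the control range. Other chains differed too, such as Col3a1, at -0.19 by edgeR on counts and -0.51 as log2 ratio of the mean TPM. Col20a1, named after its values were seen, was at -0.04 and 0.24.

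Col9a3, a type IX chain known from cartilage, had 54.9, 29.3, 65.9, 60.8 and 9.11 CPM in circTau6 libraries, against 54.4, 8.07, 61.1, 51.2 and 41.6 CPM in control libraries. Its low libraries were the same as for Igf2, namely circTau6 replicate 5 and control replicate 2, and the log2 fold change was 0.03 ± 0.61. Col19a1, made by hippocampal interneurons in mice, had 15.0 to 19.3 CPM in circTau6 libraries and 14.1 to 17.5 CPM in control libraries, with a log2 fold change of 0.05 ± 0.09. It stood at 102% and 115% of the median of the other libraries of its group in circTau6 replicate 5 and control replicate 2.

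Type VIII collagen builds hexagonal networks, known from the cornea. Its chain Col8a1 had 31.5, 16.4, 38.3, 32.2 and 2.11 CPM in circTau6 libraries, against 32.3, 1.90, 37.4, 33.4 and 25.9 CPM in control libraries. Its partner Col8a2 had 17.6, 9.42, 29.6, 22.9 and 2.04 CPM in circTau6 libraries, against 19.6, 3.97, 23.5, 18.5 and 14.6 CPM in control libraries. circTau6 replicate 5 and control replicate 2 were far below all other libraries for both chains, with 31 and 32 counts behind the 2 values of Col8a1. The log2 fold changes were -0.11 ± 0.77 for Col8a1 and 0.03 ± 0.65 for Col8a2. The anchoring fibril chain Col7a1 did not share these low libraries and had 3.17 to 5.28 CPM in circTau6 libraries and 2.12 to 4.94 CPM in control libraries.

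The Col8a1 window, chr16:57754688-57754987 on the minus strand of GRCm38.p6, is shown because Col8a1 had the widest range among chains above 10 TPM, 20.2-fold between libraries. Capitals mark its 4 GC boxes, and it holds no CCAAT or TATA box.
Col8a1: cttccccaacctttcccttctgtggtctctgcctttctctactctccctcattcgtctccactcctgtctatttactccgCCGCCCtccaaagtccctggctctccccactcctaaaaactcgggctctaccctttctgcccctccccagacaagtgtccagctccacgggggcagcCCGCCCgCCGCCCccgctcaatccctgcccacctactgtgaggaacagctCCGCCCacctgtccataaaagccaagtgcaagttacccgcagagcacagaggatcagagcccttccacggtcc

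Among the transmembrane chains, Col25a1, a neuronal collagen first found as a component of amyloid plaques, was the steadiest. It had 109, 105, 85.0, 89.4 and 96.2 CPM in circTau6 libraries, against 103, 98.9, 109, 97.9 and 99.1 CPM in control libraries. circTau6 replicates 3 to 5 lay below every control library, and the log2 fold change was -0.07 ± 0.06 with an adjusted p of 0.981 by edgeR. Col23a1 had 14.5, 14.8, 22.1, 21.6 and 11 CPM in circTau6 libraries, against 14.0, 11.6, 9.7, 10.1 and 16.1 CPM in control libraries. circTau6 replicates 3 and 4 lay above every control, and the log2 fold change was 0.46 ± 0.21 with an unadjusted p of 0.0493 by edgeR. Col13a1, a chain of muscle-nerve contacts, had 1.22 to 2.70 CPM in circTau6 libraries and 0.870 to 2.18 CPM in control libraries.

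**Figure D4:**
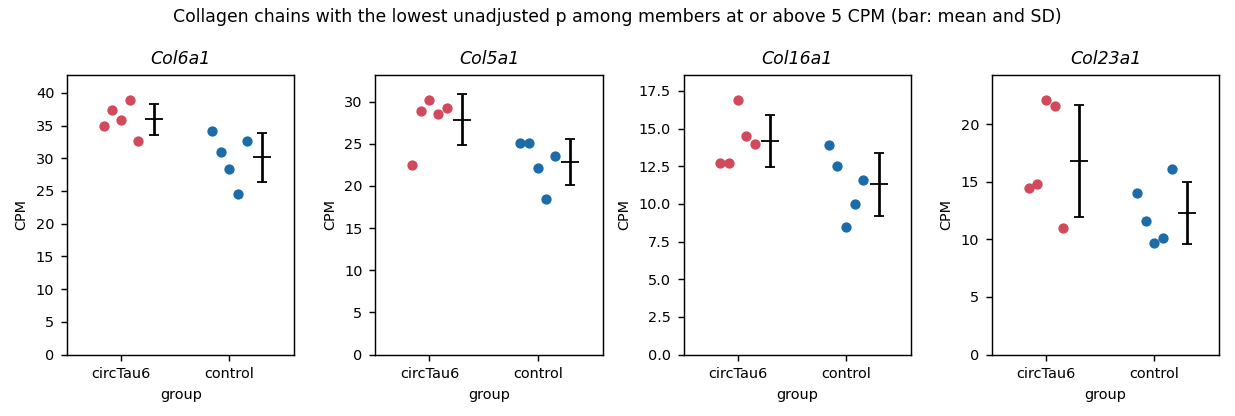
CPM by library of the 4 chains above 5 CPM with the lowest unadjusted p. Each point is a library, circTau6 in red on the left and control in blue on the right, and the black bar is the group mean with its SD. The groups overlap in every panel; 4 of 5 circTau6 libraries lie above all controls for Col6a1 and Col5a1, 3 for Col16a1 and 2 for Col23a1.

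The fifth chain with an unadjusted p under 0.05 was Col28a1, with 1 to 16 counts per library, named after its values were seen. It had 0.623 to 1.09 CPM in circTau6 libraries and 0.0574 to 0.652 CPM in control libraries, and 4 circTau6 libraries lay above every control. The log2 fold change was 1.24 ± 0.51 with an unadjusted p of 0.0263 and an adjusted p of 0.981 by edgeR. The multiplexins, collagens of basement membrane zones whose tail fragment in Col18a1 is endostatin, differed less. Col18a1 had 5.37 to 14.9 CPM in circTau6 libraries and 4.69 to 12.4 CPM in control libraries, and Col15a1 had 3.57 to 5.53 CPM in circTau6 libraries and 3.8 to 5.22 CPM in control libraries. Col26a1 had 0.995 to 3.16 CPM in circTau6 libraries and 1.23 to 2.60 CPM in control libraries.

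The authors' deposited table gave an unadjusted p under 0.05 to 6 members, the 5 above and Col12a1, and an FDR under 0.05 to 0. Its smallest member FDR was 0.897. Col12a1, at 0.56 as log2 ratio of the mean TPM, was 0.27 ± 0.15 by edgeR on counts.

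Across libraries, 9 members stood under 50% of the median of their group's other libraries in both circTau6 replicate 5 and control replicate 2. They were Col4a3, Col4a4, Col8a1, Col8a2, Col9a3, Col17a1, Col18a1, Igf2 and Igfbp2, or 16.7% of the members tested against 1.90% of all genes. The values in circTau6 replicate 5 and control replicate 2 were 6.61% and 5.78% for Col8a1, 15.8% and 15.3% for Col9a3, and 17.3% and 29.9% for Igf2. Col17a1, a chain of hemidesmosomes given here after its values were seen, was at 6.73% in circTau6 replicate 5 and had 0 counts in control replicate 2. The limit of 50% lay between Col18a1, at 47.0% and 46.3%, and Lum, at 44.7% and 54.0%. Markers of choroid plexus epithelium moved with these genes, and Ttr had 27.9 CPM in circTau6 replicate 5 and 38.6 CPM in control replicate 2, against 1670 to 4960 CPM in the other 4 circTau6 and 2600 to 4010 CPM in the other 4 control libraries. Their part in the values of these members was not tested. The other 45 members tested did not pass this limit in both libraries, among them Dcn at 52.6% and 75.6% and Slc22a6 at 97.2% and 190%.

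**Figure D5:**
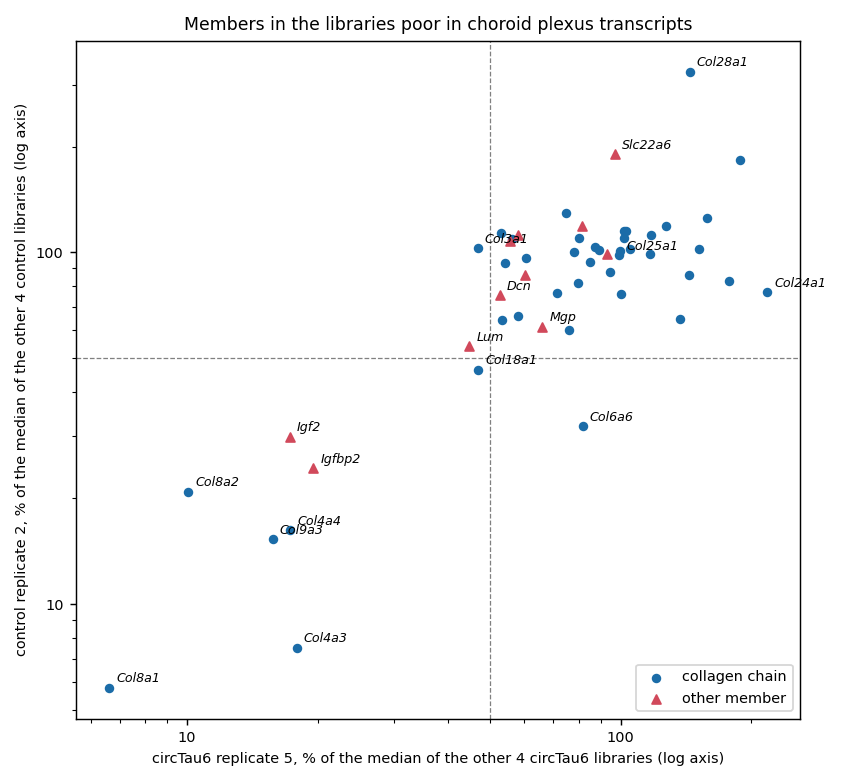
Members in the libraries poor in choroid plexus transcripts. Each point is a gene, its level in circTau6 replicate 5 (x) and in control replicate 2 (y) as percent of the median of the other 4 libraries of the group, both on log axes, with dashed lines at 50%; blue circles are collagen chains and red triangles other members, and Col17a1 at 0 in control replicate 2 is not drawn. Col8a1, Col8a2, Col9a3, Col4a3, Col4a4, Igf2, Igfbp2 and Col18a1 lie in the lower left field.

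A second set of members was low in circTau6 replicate 2. There 15 members (27.8%) stood under 50% of the median of the other circTau6 libraries, against 2.17% of all genes. They include Col1a1, Col1a2, Col3a1, Mgp, Ogn, Fbln1, Slc6a13 and Slc22a6, and 4 of the 9 genes above, Col4a3, Col8a2, Igf2 and Igfbp2. In circTau6 replicate 3, 28 members (51.9%) had their highest value of all 10 libraries, against 18.3% of all genes. Summed over the 11 members that are not collagens, CPM was 796 in circTau6 replicate 3, 330 in circTau6 replicate 2 and 250 in circTau6 replicate 5, against 288 to 552 in control libraries. Without Igf2 and Igfbp2, the other 9 summed to 415 CPM in circTau6 replicate 3, 176 CPM in circTau6 replicate 2 and 193 CPM in circTau6 replicate 5, against 184 to 264 CPM in control libraries, so that circTau6 replicate 2 and not circTau6 replicate 5 was then the lowest library. The separate list of meningeal fibroblast genes had its highest sum, 382 CPM, in circTau6 replicate 3 and its lowest, 187 CPM, in circTau6 replicate 2. The part that the amount of meninges in each sample had in these values was not tested.

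Across the 10 libraries, Dcn moved with 2 chains of fibroblasts. Permutation p-values are given raw and then adjusted over the 10 relations computed. Pearson's r of log2 CPM with Col1a2 was 0.74 (permutation p = 0.0137, adjusted 0.0275), and Spearman's rho was 0.79 (permutation p = 0.00869, adjusted 0.0268). With Col3a1, r was 0.76 (permutation p = 0.0105, adjusted 0.0263) and rho 0.84 (permutation p = 0.00382, adjusted 0.0191). Without circTau6 replicates 5 and 3, the libraries farthest from the median of Dcn, r was 0.77 for both genes with an adjusted permutation p of 0.058. After centring on the group means r was 0.74 for Col1a2 and 0.77 for Col3a1.

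With Slc6a13, r was 0.62 (permutation p = 0.0538, adjusted 0.0768) and rho 0.65 (permutation p = 0.0486, adjusted 0.0811), short of the threshold after adjustment. Over the 8 libraries that held choroid plexus transcripts, r of Dcn was 0.96 with Slc6a13, 0.97 with Col1a2 and 0.86 with Col3a1, given as a description. The steady chains had negative values. For Col4a1, r was -0.48 (permutation p = 0.162, adjusted 0.179) and rho -0.43 (permutation p = 0.221, adjusted 0.245), and for Col25a1, r was -0.34 (permutation p = 0.334, adjusted 0.334) and rho -0.22 (permutation p = 0.533, adjusted 0.533). Without circTau6 replicates 5 and 3, r with Col4a1 was -0.76 (permutation p = 0.0232, adjusted 0.058) and rho -0.86 (permutation p = 0.0107, adjusted 0.0726). With Col25a1, r was then -0.30 (permutation p = 0.484, adjusted 0.538). Between Col4a1 and the endothelial gene Cldn5, r was -0.54 (permutation p = 0.106, adjusted 0.132) and rho -0.53 (permutation p = 0.127, adjusted 0.158).

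Where choroid plexus transcripts split the libraries, relations were computed over the 8 libraries that held them, with exact permutation tests. Ttr, the epithelium's secreted thyroid hormone carrier, had an r of 0.99 with Col9a3 (exact p = 4.96e-05, adjusted 0.000496) and a rho of 0.98 (exact p = 0.000397, adjusted 0.00397), and r was 0.98 without circTau6 replicates 2 and 3. Between Ttr and Igf2, r was 0.93 (exact p = 0.00171, adjusted 0.00856) and rho 0.86 (exact p = 0.0107, adjusted 0.0268), but r was 0.65 without those libraries (exact p = 0.147, adjusted 0.21). Dcn with Igf2 gave an r of 0.84 (exact p = 0.00694, adjusted 0.0231) and a rho of 0.81 (exact p = 0.0218, adjusted 0.0436), and r was 0.51 without them (exact p = 0.301, adjusted 0.377). For Ttr with Dcn, r was 0.72 (exact p = 0.0409, adjusted 0.0681) and rho 0.71 (exact p = 0.0576, adjusted 0.0823), and r was -0.02 without circTau6 replicates 2 and 3. With 6 libraries left and the range of the x axis narrowed, these values cannot tell whether a relation rests on the libraries left out. After centring on group means, the adjusted exact permutation p of rho was 0.0559 for Dcn with Igf2 and 0.0544 for Ttr with Igf2, both above 0.05, while that of r was 0.0263 for Dcn with Igf2 and 0.00992 for Ttr with Igf2.

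As a description of likeness, 9 of the 53 other members tested (17.0%) had an r of 0.8 or above with Dcn over 10 libraries, against 3.63% of all genes, and 14 did over the 8 libraries, against 3.22% of all genes. The order changed with the libraries used. Slc22a6 had an r of 0.44 over 10 and 0.97 over 8 libraries, while Igf2 had 0.90 and 0.84. The genes outside the members most like Dcn over 10 libraries were Pcolce, Slc5a6, Gprc5c, Phldb2, Dock6, Cast, Csrp2, Dab2, Crhr2 and Gsn, with r of 0.95 to 0.96.

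Genes that make, bind or remodel collagen were read from lists of other genes, and edgeR called 0 of them in either direction. Among all genes tested, 49.9% lay above 0 in log2 fold change. Above 0 in log2 fold change were 17 of 27 genes of collagen biosynthesis and crosslinking (median 0.03), 8 of 9 collagen receptors (0.10), 14 of 16 basement membrane genes other than collagen (0.14), 5 of 8 other small leucine-rich proteoglycans (0.10), 8 of 9 genes of the IGF system (0.06), 10 of 15 genes of TGF-beta signalling (0.05) and 2 of 8 matrix proteases and inhibitors (-0.01). The lowest unadjusted p by edgeR were those of the TGF-beta receptor Tgfbr2, at 0.33 ± 0.12 (0.0127), of P3h4, a partner of collagen hydroxylases, at 0.34 ± 0.15 (0.038), and of the laminin chain Lama2, at 0.20 ± 0.09 (0.0436), each with an adjusted p of 0.981. Among the other 19 meningeal fibroblast genes tested, 18 lay above 0 with a median of 0.32, and the lowest unadjusted p was that of the transcription factor Osr1, at 0.63 ± 0.29 (0.0436 by edgeR). The sum of this list was 382 CPM in circTau6 replicate 3 and 309 CPM in replicate 4. It was 266, 187 and 201 CPM in circTau6 replicates 1, 2 and 5, against 205 to 262 CPM in control libraries. How many of these genes lie above 0 without circTau6 replicate 3 was not tested. Marker sums of vessel cells overlapped between groups, with 252 to 327 CPM in circTau6 and 241 to 282 CPM in control libraries for endothelium. Pericyte markers summed to 204 to 271 CPM in circTau6 and 226 to 246 CPM in control libraries, and smooth muscle markers to 32.4 to 69.9 CPM in circTau6 and 32.5 to 38.3 CPM in control libraries. The 69.9 CPM of smooth muscle came from circTau6 replicate 3. Of 5 smooth muscle markers tested 4 lay above 0. Unadjusted p by edgeR was under 0.05 for Myh11, at 0.40 ± 0.17 (0.0301), and Mylk, at 0.36 ± 0.15 (0.035). Of 4 markers of oligodendrocyte precursors 2 lay above 0 and 2 below, with Cspg4 higher at 0.27 ± 0.10 (0.0186). Each of these 3 genes had an adjusted p of 0.981. At an unadjusted p under 0.05 by edgeR, 3 of 4 microglia markers were higher and 3 of 6 hippocampal neuron markers were lower in circTau6 libraries, each with an adjusted p of 0.981. They were Csf1r at 0.17 ± 0.06 (unadjusted p = 0.00671), Tmem119 at 0.25 ± 0.08 (0.00683) and Cx3cr1 at 0.17 ± 0.07 (0.0238) on the log2 scale for microglia, and Spink8 at -0.27 ± 0.10 (0.0195), Ociad2 at -0.14 ± 0.06 (0.0228) and Neurod6 at -0.14 ± 0.06 (0.0439) for hippocampal neurons. Among all genes tested, 2.58% were higher and 1.85% lower at an unadjusted p under 0.05 by edgeR. Of 4 microglia markers 3 lay above 0 and 1 below, and of 6 hippocampal neuron markers 1 lay above 0 and 5 below. Microglia markers summed to 198 to 217 CPM in circTau6 and 183 to 202 CPM in control libraries. The part that these marker differences had in the members' values was not tested.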

How the data were processed

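RNA was sequenced from hippocampus; per the labels' protocols ribosomal RNA was depleted, libraries were strand-specific and read as 150 bp pairs, and RNA integrity numbers exceeded 8.0. Per the file headers, the deposited values are a raw count and a TPM for each of 21956 genes in each library. A log2 fold change, p-value and FDR of the authors' own are also deposited, made by a test that the table does not name. StringTie 1.3.1 and RSEM are named without a role in the submitters' processing notes. Not given in the sources used here are the aligner, the genome build, the annotation and whether counting used strand. In 108 entries, 0 of them a member, a count of 0 stood beside a TPM above 0, so counts may be rounded estimates.

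Counts were tested with edgeR 4.0.16 in R 4.3.3 (quasi-likelihood test, filterByExpr, TMM) over all 14396 genes past the filter, with p-values adjusted by Benjamini-Hochberg and called under 0.05. CPM are counts over TMM-scaled library size, and log2 CPM for correlations used a prior count of 2. TPM served to compare levels between genes. Permutation tests were two-sided, with 100000 resamples over 10 libraries and all 40320 orders over 8. DESeq2 1.42.0, limma 3.58.1, RLE size factors, other filters, a replicate block and libraries left out were alternatives. Scripts were tested on simulated data. The labels do not identify single animals, so p-values measure the spread between these samples, which may in part be technical.

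Named genes were the 11 members that are not collagens, up to 3 chains per structural class by mean TPM, and the 3 members with the lowest unadjusted p, 33 in all. Members, lists and most alternatives were chosen with earlier results of these data known. Positions are from GENCODE M21 on GRCm38, matched by gene ID for all 55 members, of which 32 overlap another annotated gene and 22 one on the other strand. Promoter windows are from RefSeq on GRCm38.p6, and members without a window are named only. Depth covers counting error only.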

Additional observations from a re-analysis of the deposited data

Results flagged for a closer look

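In 108 groups of 5 libraries, 1 for each tested member and group, 10 held a library far from the other 4, the gap to its neighbour exceeding 0.71 of the range in CPM. For independent values from a normal distribution, chance alone places about 1 in 20 groups there. Whether CPM of the members follow such a distribution was not tested, and members that share low libraries are not independent. The rate may therefore not hold here.

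Control replicate 2 was the low library in 4 of them. Col4a3 had 0.534 CPM there, against 6.60 to 7.46 CPM in the other controls, Col4a4 1.19 against 6.34 to 8.08 CPM, Igf2 56.9 against 171 to 213 CPM, and Igfbp2 17.0 against 61.2 to 77.7 CPM. That library also had few choroid plexus transcripts.

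Control replicate 1 was the high library in 3 of them. Col1a1 had 15.8 CPM there, against 7.17 to 8.13 CPM in the other controls, Col3a1 14.3 against 3.16 to 5.67 CPM, and Col5a2, another type V chain, 17.9 against 11.2 to 13.1 CPM.

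The other 3 were in circTau6 libraries. Col5a1 was low in replicate 1, at 22.5 CPM against 28.5 to 30.2 CPM in the other circTau6 libraries. Col19a1 was high in replicate 2, at 19.3 CPM against 15.0 to 16.2 CPM, and Col7a1 in replicate 3, at 5.28 CPM against 3.17 to 3.74 CPM.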

How the results depend on the processing

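No member was called under any of the 17 alternatives, and the smallest adjusted p of a member was 0.573, without circTau6 replicate 1. Over all genes the count called, 0 in the fit reported, was 14 with DESeq2, 2 with limma voom, 2 with no filter on low counts, 3 without both libraries poor in choroid plexus transcripts, and 0 to 4 without 1 library, with 4 without circTau6 replicate 5 and 1 without control replicate 1 or 3. The number of members higher at an unadjusted p under 0.05 was 3 with at least 1 CPM in 5 libraries, where Col28a1 is not tested and Col23a1 misses the limit, and 2 to 5 without 1 library. The number lower was 1 without control replicate 5 and 0 otherwise. The median log2 fold change of the members was 0.01 to 0.25 without 1 library, and 28 to 44 members lay above 0. Counts of members by library, on TPM or on CPM with no TMM factor (added after seeing the data), were 24 to 28 highest in circTau6 replicate 3, 15 to 16 under 50% in circTau6 replicate 2 and 9 in both choroid-poor libraries.

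With the replicate number as a block, edgeR called 4 of all genes and 0 members, and gave 0.00 for Col4a4 and -0.08 for Col8a2. Deviations of same-numbered libraries correlated at 0.10, 0.13, 0.14, -0.06 and -0.08, and a library correlated best with its own number for replicate 2 only. Low correlations cannot exclude that same-numbered libraries were handled together, and the labels give no batch.

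Of 38 members followed, 19 kept their sign under every alternative. Signs that turned without 1 library had these ranges of log2 fold change: -0.01 to 0.13 for Col11a2, -0.09 to 0.26 for Col18a1, -0.01 to 0.09 for Col19a1, -0.14 to 0.25 for Col26a1, -0.03 to 0.03 for Col4a1, -0.38 to 0.17 for Col4a3, -0.27 to 0.24 for Col4a4, -0.12 to 0.10 for Col4a5, -0.17 to 0.29 for Col4a6, -0.16 to 0.63 for Col6a3, -0.13 to 0.13 for Col7a1, -0.41 to 0.18 for Col8a1, -0.29 to 0.31 for Col8a2, -0.24 to 0.29 for Col9a3, -0.06 to 0.20 for Dcn, -0.10 to 0.39 for Fbln1, -0.05 to 0.42 for Igf2, -0.15 to 0.34 for Igfbp2 and -0.09 to 0.60 for Slc22a6. limma voom turned Col26a1 (-0.09), Col4a3 (0.06), Col4a4 (0.02), Col7a1 (-0.04), Col8a2 (-0.14) and Igfbp2 (0.00). Leaving out both choroid-poor libraries turned Col26a1 (-0.02), Col4a1 (0.00), Col6a3 (-0.12) and Col7a1 (-0.01). None of these values was called, and the cause was not tested.

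Without the 2 libraries farthest from the median on the x axis, r was 0.77 for Dcn with Col1a2, 0.77 for Dcn with Col3a1, 0.51 for Dcn with Igf2 and 0.65 for Ttr with Igf2, none past the threshold with fewer libraries, and -0.02 for Ttr with Dcn. For Dcn with Col4a1 it was -0.76, also short of the threshold after adjustment. Members of low count, such as Col28a1, Col9a1 and Col17a1, are limited by depth.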
